A study of Mus musculus with 22 samples.

Results

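The RNA of the spinal cord was compared between old and young wild-type mice, across all genes measured and across 58 lists of genes grouped by pathway or cell type. The mice were chosen by age label alone: 8 libraries from mice of 18 to 24 months (old) and 8 from mice of 3 to 4 months (young), 16 of the 22 libraries in the series. The study asked how the deacetylase SIRT1 bears on the ageing neuromuscular system and on amyotrophic lateral sclerosis (ALS), and the remaining libraries came from ALS model mice and their controls. All 16 mice were male C57BL/6 animals with the genotype Wild type, with no transgene, deletion or treatment in either group. Each library held the RNA of the whole spinal cord of 1 mouse, pushed out of the spine in cold buffered saline, extracted with TRIzol, purified on Qiagen columns and prepared with the Roche RNA KAPA Hyperprep kit. The age of each single mouse within its range is not given in the sources used here, and no batch or day is stated.

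The spinal cord holds neurons that carry movement and sensation, oligodendrocytes that wrap axons in lipid-rich myelin, astrocytes that clear transmitter and ions, and microglia, the resident macrophages. In ageing nervous tissue microglia are known to take up debris through receptors such as TREM2, to degrade it in lysosomes and to raise complement and antigen-presentation genes. Interferons are signal proteins that switch on a broad antiviral set of genes, and cholesterol for myelin is made locally because blood lipoproteins do not cross into the cord. In whole tissue, fewer cells of a type and less RNA per cell cannot be told apart.

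Library totals ran from 5078092 to 9358055 counts (median 7957405.5) in young mice and from 5664869 to 9145600 (median 7305629.5) in old mice, so 3 counts corresponded to 0.32 to 0.582 CPM (counts scaled to a common library total). The cord's own markers were present in every library, including Chat and Slc18a3 of cholinergic neurons, Mbp of myelin and Gfap of astrocytes. Markers of primary sensory neurons, whose cell bodies lie outside the cord, summed to 1.85 to 4.08 CPM over all 16 mice, and adipocyte markers summed to 1.09 to 4.45 CPM. Red blood cell markers summed to 306 to 665 CPM in young and 392.7 to 1094 CPM in old mice, and 0 of their 5 tested members passed the test. On the first principal component of log2 CPM, which held 34.9% of the variance, young mice lay at -23.4 to -15.7 and 7 of the old mice at 16.9 to 26.2. The other old mouse, lettered F (mice are lettered A to H within each group), lay at 1.64, and it also stood at 37.5 on the second component where the other old mice lay at -13.4 to 6.87. Its share of counts from mitochondrial genes was 13.2%, against 5.24% to 9.18% in the other old mice and 5.79% to 9.25% in young mice, so results that rest on it are given without it too.

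Of 13647 genes tested, 1839 were higher in old mice (13.5% of those tested) and 1761 were lower (12.9%) at an adjusted p under 0.05 (edgeR quasi-likelihood test, Benjamini-Hochberg adjustment, n = 8 and 8). The numbers of genes were close, but the sizes were not. Above 2-fold there were 297 higher genes (2.18% of those tested) and 6 lower genes (0.044%). The median higher gene differed by 1.29-fold, and the median lower gene fell by 15.7%. Changes under 2-fold made up 1542 of the higher genes (83.9%) and 1755 of the lower genes (99.7%). Within a log2 fold change of 0.25 there were 575 higher and 904 lower genes, and between 0.25 and 0.5 there were 563 and 749. From 0.5 to 1 the counts were 404 and 102, from 1 to 2 they were 236 and 5, from 2 to 4 they were 49 and 1, and above 4 they were 12 and 0. The median standard error was 0.08 on the log2 scale over all genes and 0.07 over the called genes under 2-fold, and the smallest difference called was 0.09. Every old mouse lay above every young mouse in 500 genes (3.66% of those tested), 499 of them called, and every old mouse lay below every young mouse in 227 (1.66%), 226 of them called. A test against a change of at least 1.2-fold (glmTreat) kept 602 of the higher and 96 of the lower genes.

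**Figure D1:**
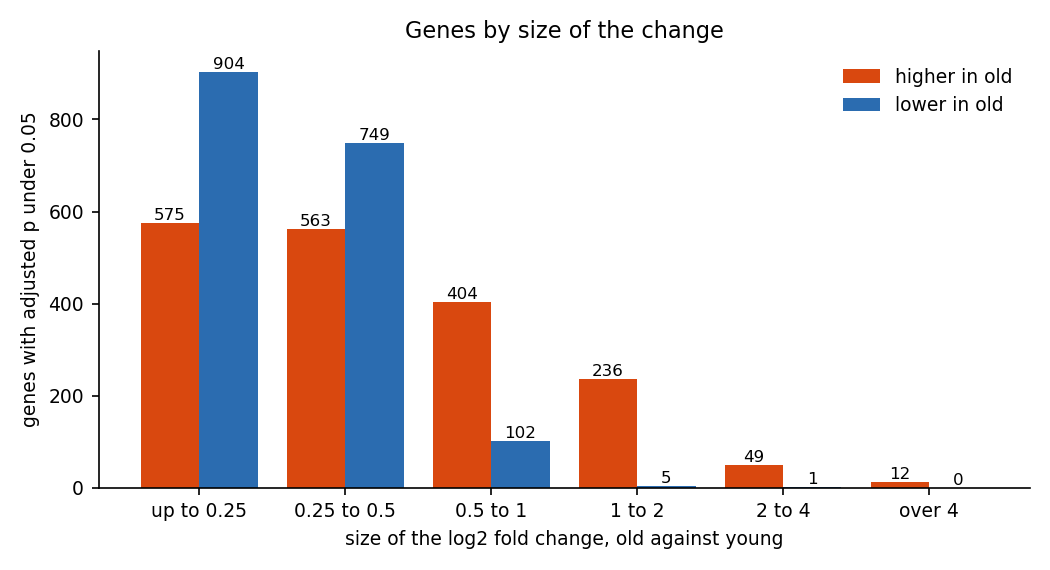
Number of genes called higher or lower in old mice, by band of absolute log2 fold change (n = 8 and 8 mice). The lower genes sit almost wholly under 0.5, with 904 and 749 genes in the first and second band, whereas 297 higher genes lie above 1.

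The 5 largest increases among called genes whose groups did not overlap came at low young levels. Cst7 (ENSMUSG00000068129, chromosome 2 from 150570415 to 150578944, GRCm38), which encodes cystatin F, an inhibitor of lysosomal cathepsins, ran from 0 to 0.388 CPM with a median of 0.113 in young mice and from 4.01 to 18.2 CPM with a median of 17.4 in old mice. No young library held more than 2 counts of it, so its rise is given as at least 35.5-fold against a floor of 3 counts per young library (adjusted p = 8.33e-11, edgeR). Values in parentheses after a gene's levels are its log2 fold change, old over young, ± its standard error and the adjusted p of that test. Where a gene has a pair of ranges, the first is that of young and the second that of old mice. Lilrb4a (ENSMUSG00000112148, chromosome 10 from 51490956 to 51496611), an inhibitory receptor of myeloid cells, ran from 0 to 0.878 CPM with a median of 0 in young mice and from 1.70 to 21.1 CPM with a median of 12.7 in old mice (5.70 ± 0.51, adjusted p = 1.38e-08). Itgax, the integrin chain CD11c, ran from 0 to 1.16 CPM with a median of 0.356 in young mice and from 8.02 to 32.1 CPM with a median of 23.2 in old mice (5.64 ± 0.33, adjusted p = 1.7e-11). In both genes the lowest old value was that of mouse F. Ccn5, a secreted matrix protein of the CCN family, ran from 0 to 0.785 CPM with a median of 0.356 in young mice and from 4.16 to 28.1 CPM with a median of 18.2 in old mice (5.54 ± 0.40, adjusted p = 4.63e-10), and Ccl3, a chemokine, ran from 0 to 0.523 CPM with a median of 0 in young mice and from 1.54 to 6.67 CPM with a median of 6.17 in old mice (5.53 ± 0.48, adjusted p = 8.67e-09). These young levels lay at a few counts per library, so the folds carry large counting error in the young group. With 1 library left out, the log2 fold change rose to as much as 6.61 for Ccl3 and 6.49 for Lilrb4a.

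The 5 largest falls among called genes whose groups did not overlap were smaller. Myoc (ENSMUSG00000026697, chromosome 1 from 162639155 to 162649693), which encodes the secreted protein myocilin found in meningeal cells, ran from 34.3 to 53.4 CPM with a median of 39.1 in young mice and from 5.98 to 27.6 CPM with a median of 8.42 in old mice (-1.91 ± 0.21, adjusted p = 2.61e-07). Mouse F held the highest old value at 27.6 CPM. Gpr17 (ENSMUSG00000052229, chromosome 18 from 31942997 to 31949636), a receptor of oligodendrocyte precursors on their way to making myelin, ran from 45.6 to 68.4 CPM with a median of 52.8 in young mice and from 23.5 to 36.3 CPM with a median of 27.8 in old mice (-0.98 ± 0.09, adjusted p = 1.46e-08). Samd15 had 1.55 to 2.26 CPM with median 1.97 in young and 0.587 to 1.46 CPM with median 1.06 in old mice (-0.93 ± 0.21, adjusted p = 0.00248). Aplnr, the apelin receptor of endothelial cells, had 20.8 to 31.2 CPM with median 25.5 and 11.6 to 16.9 CPM with median 14.4 (-0.86 ± 0.09, adjusted p = 3.47e-07), and Ugt8a, which makes the myelin lipid galactosylceramide, had 289 to 385 CPM with median 328 and 169 to 234 CPM with median 186 (-0.77 ± 0.07, adjusted p = 1.25e-08). That the groups were apart in these 5 genes follows from how they were chosen. The 6 genes that fell more than 2-fold were Myoc, the heat shock gene Hspa1b, Spata1, the carbonic anhydrase gene Car3, Bves and Gm45234, and in the last 5 the groups overlapped. That count was 11 when old B, C or E was left out.

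The genes with the smallest adjusted p among those that changed by less than 2-fold are given next. Msn (ENSMUSG00000031207, chromosome X from 96096042 to 96168552), the actin-membrane linker moesin, ran from 96.2 to 114 CPM with a median of 101 in young mice and from 159 to 181 CPM with a median of 164 in old mice (0.68 ± 0.04, adjusted p = 8.33e-11). Fxyd1, a regulator of the sodium pump, had 37.0 to 44.9 CPM with median 40.6 in young and 63.1 to 80.6 CPM with median 74.8 in old mice (0.85 ± 0.06, adjusted p = 1.14e-10). Others in this set were Ephx1 (0.82, adjusted p = 2.62e-09), Dhrs3 (0.91, adjusted p = 5.28e-09), Creg1 (0.66, adjusted p = 3.43e-09), Cnn3 (0.64, adjusted p = 3.67e-09), Shisa5 (0.65, adjusted p = 7.55e-09), Tmem176b (0.96, adjusted p = 6.82e-09) and Rnaset2b (0.60, adjusted p = 8.93e-09), with values given as log2 fold changes. On the lower side Armcx4 had 65.3 to 72.9 CPM with median 68.2 and 45.3 to 56.2 CPM with median 49.3 (-0.46 ± 0.05, adjusted p = 1.45e-07), Ptprd, a synaptic adhesion phosphatase, had 321 to 370.1 CPM with median 346 and 237 to 275 CPM with median 257 (-0.43 ± 0.04, adjusted p = 1.35e-07), and Usp31, a deubiquitinase, had 216 to 255 CPM with median 229 and 146 to 188 CPM with median 166 (-0.46 ± 0.05, adjusted p = 1.42e-07). None of these 12 genes overlapped between the groups, as genes ranked by a small adjusted p tend not to. Among all called genes, the groups were apart in 129 of 404 higher genes with log2 fold changes of 0.5 to 1. They were apart in 140 of 749 lower genes with falls of 0.25 to 0.5.

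**Figure D2:**
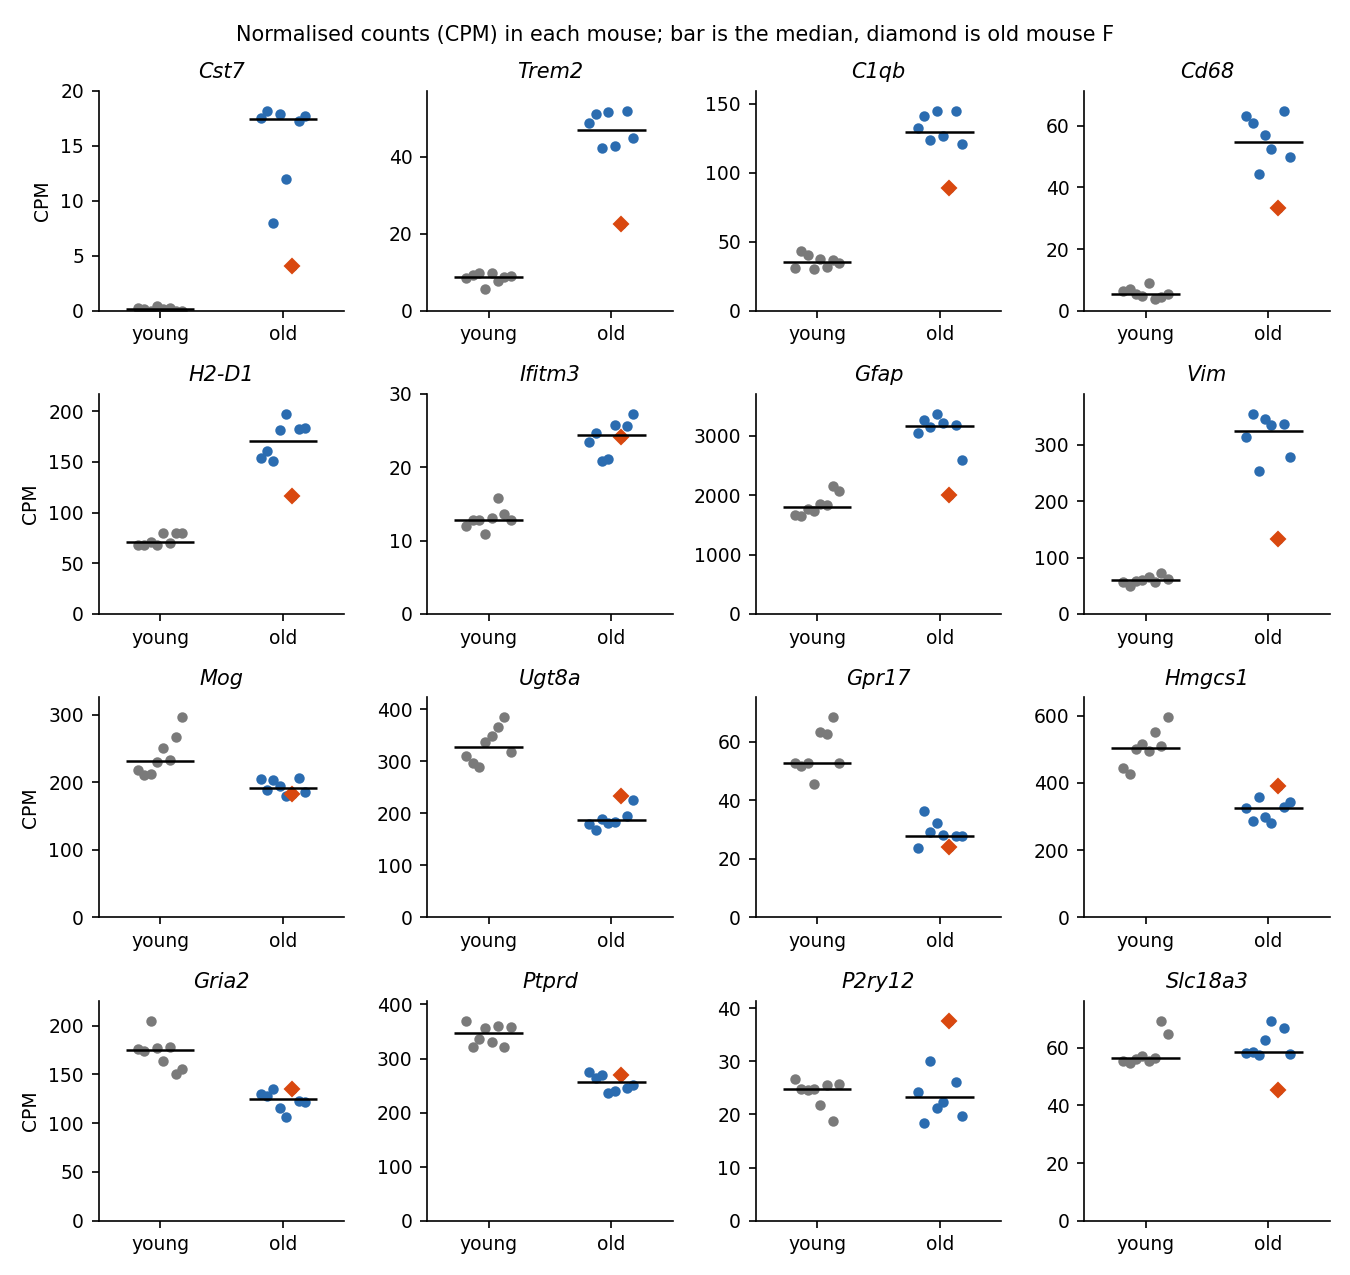
CPM of 16 single genes in each mouse on linear axes that start at 0, young and old, with a bar at the group median and a diamond for old mouse F. In Cst7, Trem2 and C1qb all old mice lie above all young mice and mouse F is the lowest old mouse, whereas in Mog and Ugt8a all old mice lie below.

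Where the small changes lay varied with the length and base composition of the transcript. Among the shortest tertile of genes by exon length (201 to 3491 bases), 20.6% were higher and 2.49% lower in old mice, against 6.8% and 26.7% in the longest tertile (6031 bases and more). Among the tertile with the highest GC content, 18.5% were higher and 6.61% lower, against 6.87% and 19.9% in the tertile with the lowest. Within single libraries the median log2 CPM of long minus short genes was taken, each gene relative to its mean over the 16 mice. It ran from -0.01 to 0.15 in young and from -0.19 to 0.02 in old mice. The overlap came from young G (-0.006), old B (0.005) and old F (0.02). The other young mice lay at 0.04 to 0.15 and the other old mice at -0.19 to -0.09. When length and GC trends of each library were removed as offsets, 1694 genes were higher and 1228 lower, of which 1286 and 920 were among those above, and 0 genes were called in the opposite direction. The shares in the shortest tertile were then 11.2% higher and 5.81% lower, and in the longest tertile 13.5% and 11.9%. Whether RNA quality differed between the groups was not tested, so counts with these offsets are given below beside each list in which they moved a count of 5 or more calls by over 1.5 times.

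**Figure D3:**
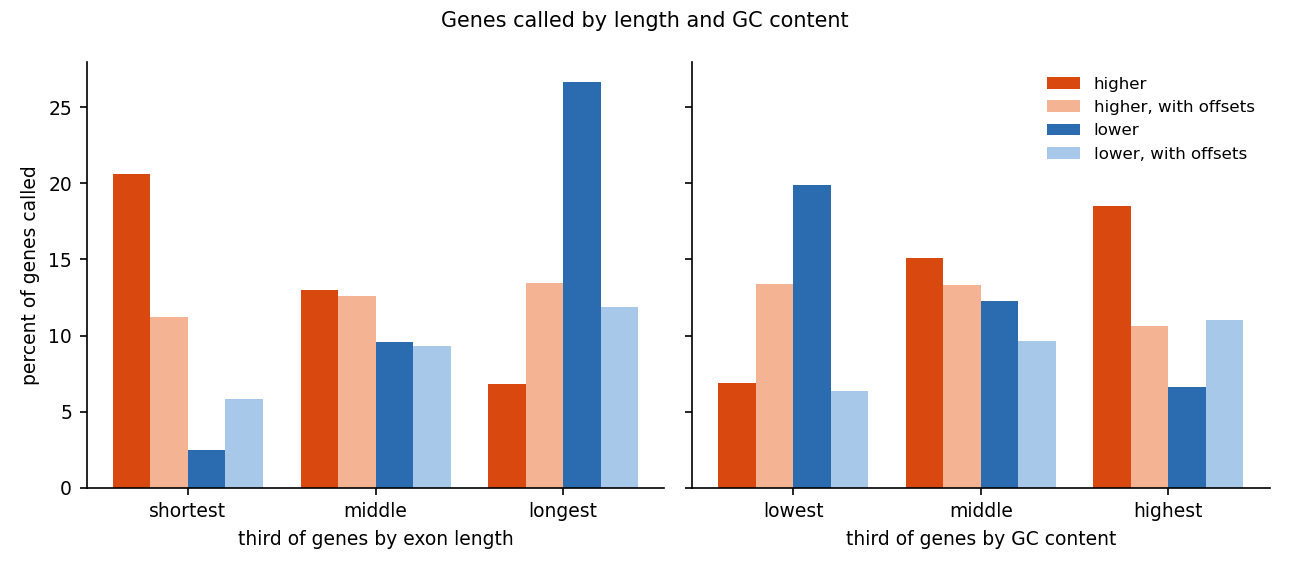
Percent of tested genes called higher and lower in old mice, by tertiles of exon length and of GC content, without and with length and GC offsets. Without offsets the longest tertile has 26.7% lower and 6.8% higher genes, and with offsets 11.9% and 13.5%.

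In all 8 lists of immune genes more members were higher than lower in old mice. A percentage after a list's count is the share of its tested genes, to be read against 13.5% higher and 12.9% lower over all genes. A gene could be tested through its counts in 1 group alone. Some members with few counts in young mice were thus tested only through their level in old mice, which raises the share higher in such lists. Of the list of disease-associated microglia, genes that microglia raise when they meet debris or lipid, all 19 tested members were higher and 13 of them by more than 2-fold (median log2 fold change 1.5, against -0.003 over all genes tested). Trem2 (ENSMUSG00000023992, chromosome 17 from 48346401 to 48354147), the lipid receptor of microglia, ran from 5.63 to 9.86 CPM with a median of 8.83 in young mice and from 22.5 to 52.0 CPM with a median of 46.8 in old mice (2.37 ± 0.14, adjusted p = 1.48e-11). Its signalling partner Tyrobp ran from 8.16 to 11.4 CPM with a median of 10.4 in young mice and from 17.4 to 60.7 CPM with a median of 52.8 in old mice (2.27 ± 0.17, adjusted p = 9.18e-10), and Apoe, the main lipid carrier of the cord, ran from 1061 to 1272 CPM with a median of 1174 in young mice and from 1762 to 2800 CPM with a median of 2487 in old mice (1.05 ± 0.07, adjusted p = 1.49e-10). Gpnmb, a membrane glycoprotein of lipid-laden macrophages, had 1.98 to 4.24 CPM with median 2.88 in young and 21 to 213 CPM with median 121 in old mice (5.45 ± 0.39, adjusted p = 4.51e-10), a range of about an order of magnitude within the old group. In each of these genes mouse F was the lowest old mouse and still lay above every young mouse.

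Of the 14 genes that mark resting microglia, 10 were higher (71.4%) and 0 lower (median 0.61). Cx3cr1, the fractalkine receptor, ran from 29.4 to 42.9 CPM with a median of 36.9 in young mice and from 52.0 to 84.8 CPM with a median of 70.2 in old mice (0.91 ± 0.09, adjusted p = 2.86e-08), and Csf1r, the growth factor receptor on which microglia depend, ran from 77.2 to 98.0 CPM with a median of 86.7 in young mice and from 108 to 165 CPM with a median of 142 in old mice (0.69 ± 0.07, adjusted p = 1.02e-07). Tmem119 had 12.3 to 19.8 CPM with median 15.2 and 14.3 to 28 CPM with median 23.1, overlapping (0.54 ± 0.12, adjusted p = 0.00141). The 4 members that did not pass were P2ry12 (0.05, adjusted p = 0.814), Sall1 (-0.01, adjusted p = 0.903), Siglech (0.16, adjusted p = 0.498) and Slc2a5 (0.11, adjusted p = 0.671), given as log2 fold changes. P2ry12, a purine receptor that microglia lose on activation, had 18.7 to 26.7 CPM with median 24.8 in young and 18.3 to 37.6 CPM with median 23.3 in old mice, and its highest value was that of mouse F.

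Complement, the cascade that tags targets for uptake, had 13 of 17 tested genes higher (76.5%) and 1 lower (median 1.85). C1qb, a chain of its recognition protein, ran from 30.1 to 43.0 CPM with a median of 35.5 in young mice and from 89.2 to 145 CPM with a median of 129.6 in old mice (1.84 ± 0.09, adjusted p = 9.81e-13). C4b ran from 87.3 to 130.5 CPM with a median of 112 in young mice and from 233 to 609 CPM with a median of 488 in old mice (2.09 ± 0.13, adjusted p = 2.91e-11), and C3ar1, the receptor of the fragment C3a, ran from 2.33 to 3.53 CPM with a median of 3.04 in young mice and from 11.4 to 20.8 CPM with a median of 17.9 in old mice (2.5 ± 0.14, adjusted p = 1.2e-11). Itgam, a chain of complement receptor CR3, had 17.5 to 23.6 CPM with median 21.4 and 35.0 to 47.6 CPM with median 43.3 (1.0 ± 0.07, adjusted p = 4.66e-10). The exception was Cfp, properdin, which stabilises the alternative pathway: it had 5.31 to 7.46 CPM with median 5.74 and 2.70 to 5.22 CPM with median 4.63 (-0.41 ± 0.13, adjusted p = 0.0253, and 0.0547 without young H). All 5 of these genes separated the groups.

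Genes for antigen presentation were higher too. Of 20 MHC class I and antigen-processing genes, 18 were higher (90.0%, median 0.92), and the other 2 were Erap1 (0.22, adjusted p = 0.0558) and Tapbpl (0.23, adjusted p = 0.168). B2m, the shared light chain, ran from 63.3 to 119 CPM with a median of 85.8 in young mice and from 195 to 313 CPM with a median of 236 in old mice (1.51 ± 0.10, adjusted p = 1.55e-10), H2-D1, a heavy chain, ran from 67.6 to 80.3 CPM with a median of 70.6 in young mice and from 116 to 197 CPM with a median of 171 in old mice (1.18 ± 0.08, adjusted p = 1.55e-10), and Psme1, a proteasome activator, ran from 19.6 to 22.8 CPM with a median of 20.8 in young mice and from 28.7 to 36.0 CPM with a median of 31.7 in old mice (0.60 ± 0.06, adjusted p = 6.76e-08). H2 genes are close copies of each other, so the division of reads among them is uncertain. Of 8 MHC class II genes with counts, 5 were tested, and all 5 were higher (median 1.81). Cd74, the invariant chain, had 0.915 to 3.5 CPM with median 2.27 and 4.16 to 15.5 CPM with median 8.26 (1.94 ± 0.24, adjusted p = 1.64e-06), with the highest value in old D, and H2-Aa had 0.226 to 0.785 CPM with median 0.565 and 1.54 to 4.16 CPM with median 2.60 (2.35 ± 0.27, adjusted p = 5.73e-07).

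Of 23 tested pattern-recognition, Fc receptor and uptake genes, 22 were higher (95.7%), 17 of them by more than 2-fold (median 1.28). Cybb, the catalytic subunit of the phagocyte oxidase, had 0.131 to 0.970 CPM with median 0.413 and 7.40 to 21.1 CPM with median 14.7 (5.05 ± 0.29, adjusted p = 1.48e-11), Fcer1g, the shared Fc receptor chain, had 5.63 to 7.57 CPM with median 6.16 and 17.0 to 25.7 CPM with median 22.2 (1.76 ± 0.10, adjusted p = 9.39e-12), and Tlr2 had 2.85 to 5.42 CPM with median 4.34 and 8.33 to 21.2 CPM with median 18.4 (1.96 ± 0.17, adjusted p = 8.67e-09). Of 23 chemokines and cytokines 11 were tested. Of these 11, 8 were higher (72.7%), among them Cxcl16 (2.63, adjusted p = 5.51e-11), Cxcl10 (2.56, adjusted p = 1.13e-06) and Tgfb1 (1.28, adjusted p = 3.42e-08), given as log2 fold changes. No young library held more than 9 counts of Cxcl10 or 4 of Ccl3, so both were tested through their levels in old mice. Summed markers of lymphocytes were low. The 15 T cell markers, none of which had the counts to be tested, summed to 1.48 to 2.69 CPM (9 to 22 counts) in young and 3.09 to 5.97 CPM (20 to 56 counts) in old mice. This sum was higher in every old mouse than in every young mouse, at these few counts. The 10 B cell and plasma cell markers summed to 0.97 to 3.73 CPM and 4.90 to 9.31 CPM, and the only tested member was Cd22 (0 to 0.519 CPM with median 0.227 and 2.78 to 7.36 CPM with median 5.60, 4.31 ± 0.31, adjusted p = 4.63e-10), an inhibitory receptor that microglia can also express. The other 9 summed to 0.776 to 3.5 CPM with median 2.41 in young and 1.41 to 3.39 CPM with median 1.98 in old mice, overlapping. Neutrophil markers summed to 0.194 to 1.32 CPM and 0.463 to 3.94 CPM, overlapping. Of 10 border macrophage markers 1 had the counts to be tested. It did not pass over all mice (log2 fold change 0.24) but was called higher without mouse F (0.30). What part other immune cells had in the lists above was not tested.

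Of 31 tested interferon-stimulated genes, 22 were higher and 0 lower (71.0% higher, against 13.5% of all genes, median 0.67), and every old mouse lay above every young mouse in 6, against 3.66% of all genes. Ifitm3 (ENSMUSG00000025492, chromosome 7 from 141009586 to 141010770), which blocks the entry of viruses into cells, ran from 10.9 to 15.8 CPM with a median of 12.8 in young mice and from 20.9 to 27.3 CPM with a median of 24.4 in old mice (0.88 ± 0.08, adjusted p = 1.21e-08). Gbp2, a guanylate-binding protein that acts on intracellular microbes, ran from 3.62 to 5.62 CPM with a median of 4.36 in young mice and from 6.32 to 14.9 CPM with a median of 9.70 in old mice (1.1 ± 0.15, adjusted p = 6.69e-06). Ifit3, which binds viral RNA together with its relatives, ran from 5.99 to 14.8 CPM with a median of 11.9 in young mice and from 9.56 to 31.4 CPM with a median of 21.8 in old mice, overlapping (0.90 ± 0.19, adjusted p = 0.00105). Isg15, a ubiquitin-like modifier, had 0.776 to 1.69 CPM with median 1.11 and 0.617 to 3.40 CPM with median 2.05 (0.79 ± 0.27, adjusted p = 0.0335), and with length and GC offsets its log2 fold change was 0.61, adjusted p = 0.0993. It was not called with any of 8 libraries left out either (adjusted p up to 0.0873).

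The promoters of the interferon list share a short sequence more often than promoters at large. RefSeq promoter windows of 300 bases (250 before to 50 after the start, GRCm38.p6) were searched on both strands for the letters GAAANNGAA, the core of the element that interferon-activated factors bind, counting overlapping matches. Of 30 windows of 26 interferon-stimulated genes, 19 held it (63.3%), against 950 of 13759 windows over the 10667 tested genes that had a window (6.91%). The windows of Ifitm3 (chr7:141010695-141010994 on the minus strand), Gbp2 (chr3:142620413-142620712 on the plus strand) and Ifit3 (chr19:34583279-34583578 on the plus strand), 3 of the genes whose values are given above, are printed 5′ to 3′ in the direction of the gene, with each match in capitals.
Ifitm3: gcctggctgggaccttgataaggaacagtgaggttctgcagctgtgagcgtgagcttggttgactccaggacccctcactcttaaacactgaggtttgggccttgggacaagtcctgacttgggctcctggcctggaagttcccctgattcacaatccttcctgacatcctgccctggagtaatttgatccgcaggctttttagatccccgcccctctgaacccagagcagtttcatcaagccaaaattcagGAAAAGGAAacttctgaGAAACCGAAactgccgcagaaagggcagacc
Gbp2: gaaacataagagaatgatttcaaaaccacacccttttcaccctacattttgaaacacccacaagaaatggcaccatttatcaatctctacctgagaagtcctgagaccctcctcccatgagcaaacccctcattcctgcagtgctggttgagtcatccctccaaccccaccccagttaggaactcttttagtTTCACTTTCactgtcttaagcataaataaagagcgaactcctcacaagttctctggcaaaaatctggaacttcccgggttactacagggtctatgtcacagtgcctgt
Ifit3: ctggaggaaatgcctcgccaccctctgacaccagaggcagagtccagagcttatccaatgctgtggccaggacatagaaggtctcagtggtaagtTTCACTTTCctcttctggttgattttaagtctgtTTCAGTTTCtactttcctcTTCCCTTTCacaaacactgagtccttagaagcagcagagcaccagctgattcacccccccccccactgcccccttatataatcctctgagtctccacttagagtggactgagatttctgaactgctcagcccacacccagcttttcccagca
Where the capitals read TTC first, the match is on the opposite strand. A match is a description of these letters, not of a binding site or a cause, and its part in the values was not tested.

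Most lysosomal genes rose, and mostly by small amounts. Of 39 lysosomal enzymes and membrane proteins, 31 were higher (79.5%) and 0 lower, 7 of them by more than 2-fold (median 0.35). Cd68, a lysosomal membrane protein of macrophages, ran from 3.84 to 8.82 CPM with a median of 5.41 in young mice and from 33.3 to 65.0 CPM with a median of 54.8 in old mice (3.20 ± 0.15, adjusted p = 6.53e-13). Among lysosomal proteins of many cell types, Ctsd, a major protease, ran from 355 to 401 CPM with a median of 373 in young mice and from 568 to 1253 CPM with a median of 1124 in old mice (1.5 ± 0.11, adjusted p = 3.73e-10), Grn, the precursor of granulins, ran from 41.6 to 49.4 CPM with a median of 45.3 in young mice and from 68.6 to 108 CPM with a median of 105 in old mice (1.12 ± 0.07, adjusted p = 8.33e-11), and Ctsa had 108 to 123 CPM with median 115 and 148 to 190.2 CPM with median 173 (0.59 ± 0.05, adjusted p = 2.34e-09). Lamp1, an abundant lysosomal membrane protein of all cells, had 627 to 704 CPM with median 662 and 744 to 819.5 CPM with median 792, a rise of 18.1% with no overlap (0.24 ± 0.04, adjusted p = 3.98e-05). Of 16 tested subunits of the V-ATPase, the pump that acidifies lysosomes, 7 were higher (43.8%, median 0.11) and 4 with the offsets, against 13.5% of all genes.

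Lipid handling divided by direction. Of 14 tested genes for cholesterol efflux and lipid storage, 10 were higher (71.4%, against 13.5% of all genes) and 0 lower (median 0.34). Abca1, which exports cholesterol to lipoproteins, ran from 37.0 to 52.0 CPM with a median of 42.7 in young mice and from 53.5 to 83.2 CPM with a median of 71.6 in old mice (0.66 ± 0.09, adjusted p = 7.81e-06), Plin2, the coat protein of lipid droplets, had 14.9 to 17.7 CPM with median 15.9 and 18.8 to 31.3 CPM with median 27.2 (0.74 ± 0.09, adjusted p = 1.45e-06), and Apod, a lipid-binding apolipoprotein of glia, had 581 to 781 CPM with median 672 and 819 to 1261 CPM with median 1015 (0.60 ± 0.08, adjusted p = 4.76e-06). By contrast, of 23 cholesterol synthesis genes 14 were lower and 0 higher (60.9% lower, against 12.9% of all genes, median -0.21), and every old mouse lay below every young mouse in 6, against 1.66% of all genes. Hmgcs1 (ENSMUSG00000093930, chromosome 13 from 119690379 to 119708260), which encodes an early enzyme of the pathway, ran from 426 to 595 CPM with a median of 505 in young mice and from 279.7 to 392 CPM with a median of 326 in old mice (-0.63 ± 0.07, adjusted p = 3.96e-07). Sqle, a later enzyme that makes squalene epoxide, had 117 to 145 CPM with median 122 and 84.6 to 107 CPM with median 98.7 (-0.35 ± 0.05, adjusted p = 1.26e-05), and Idi1 had 95.5 to 135 CPM with median 117 and 61.2 to 96.2 CPM with median 82.1 (-0.52 ± 0.08, adjusted p = 2.19e-05). In Hmgcs1 and Idi1 the highest old value was that of mouse F. The letters TCACNCCAC, the core of the sterol response element, were found on either strand in 1 of 19 windows of these genes (5.26%), that of Hmgcs1 (chr13:119690101-119690400 on the plus strand), against 152 of 13759 windows (1.11%).
Hmgcs1: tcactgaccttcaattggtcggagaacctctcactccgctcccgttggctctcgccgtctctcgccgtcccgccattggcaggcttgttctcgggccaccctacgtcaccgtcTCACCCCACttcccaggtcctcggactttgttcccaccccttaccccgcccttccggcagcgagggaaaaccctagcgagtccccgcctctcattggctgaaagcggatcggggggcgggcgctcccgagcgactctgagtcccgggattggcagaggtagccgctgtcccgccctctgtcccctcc
The capitals mark the match, again in the direction of the gene.

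Astrocyte genes differed by class. Of 17 tested genes that astrocytes raise after injury, 16 were higher (94.1%), 11 by more than 2-fold (median 1.16). Gfap, the intermediate filament that defines these cells, ran from 1654 to 2164 CPM with a median of 1804 in young mice and from 1999 to 3371 CPM with a median of 3167 in old mice (0.69 ± 0.08, adjusted p = 1.31e-06), and the overlap came from mouse F at 1999 CPM. Vim, a second filament protein, ran from 49.9 to 71.9 CPM with a median of 59.3 in young mice and from 132 to 355 CPM with a median of 324 in old mice (2.29 ± 0.14, adjusted p = 2.74e-11), Serpina3n, a secreted protease inhibitor, ran from 49.5 to 59.6 CPM with a median of 52.7 in young mice and from 106 to 252 CPM with a median of 218 in old mice (1.94 ± 0.12, adjusted p = 2.43e-11), and Timp1, a metalloproteinase inhibitor, had 0.113 to 0.707 CPM with median 0.325 and 3.39 to 7.04 CPM with median 5.28 (3.99 ± 0.27, adjusted p = 1.41e-10). Cd44, a hyaluronan receptor, had 23.8 to 33.7 CPM with median 27.6 and 40.1 to 63.2 CPM with median 57.3 (1.0 ± 0.08, adjusted p = 2.22e-09). The member that did not pass was Lcn2 (-0.66, adjusted p = 0.352), where young B alone had 8.77 CPM and the other young mice at most 2.41. Of 18 genes of resting astrocytes, 4 were higher, namely Slc1a3, Aldh1l1, Sox9 and Mlc1, and 4 were lower, namely Gja1, Kcnj10, Slc7a10 and Slc4a4 (22.2% each, against 13.5% and 12.9% of all genes, median -0.04). With the offsets 2 were higher and 3 lower. Sox9, the lineage factor, had 40.9 to 46.1 CPM with median 42.8 and 52.6 to 58.5 CPM with median 54.9 with no overlap (0.35 ± 0.04, adjusted p = 2.53e-06), and Kcnj10, the potassium channel that buffers this ion, had 1091 to 1229 CPM with median 1144 and 840.5 to 1125 CPM with median 926 (-0.25 ± 0.05, adjusted p = 0.00136). The glutamate transporter Slc1a2 (-0.08, adjusted p = 0.332) and the water channel Aqp4 (-0.08, adjusted p = 0.32) did not pass.

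Some genes of oligodendrocytes were lower, at both the mature and the precursor stage. Of 19 genes of myelin and mature oligodendrocytes, 10 were lower (52.6%, against 12.9% of all genes) and 2 higher (median -0.23). Ugt8a is described above. Mal, a raft protein of myelin, ran from 535 to 695 CPM with a median of 599 in young mice and from 394 to 487 CPM with a median of 413 in old mice (-0.52 ± 0.06, adjusted p = 5.83e-07), Mog, a surface glycoprotein of myelin, had 210.0 to 296 CPM with median 231 and 179.8 to 207 CPM with median 191 (-0.31 ± 0.06, adjusted p = 0.00065), and none of these overlapped. Fa2h, which makes the hydroxylated fatty acids of myelin lipids, had 186 to 238 CPM with median 209 and 117 to 196 CPM with median 136 (-0.59 ± 0.08, adjusted p = 1.54e-05), with the overlap due to mouse F at 196 CPM, and the connexin gene Gjc3 had 139 to 176 CPM with median 156 and 94.4 to 141 CPM with median 104 (-0.52 ± 0.07, adjusted p = 1.28e-05). The higher members were Mbp, the basic protein of myelin (13450 to 17280 CPM with median 15080 and 15290 to 18740 CPM with median 16380, 0.16 ± 0.06, adjusted p = 0.0383), and Trf, the iron carrier transferrin (1680 to 2232 CPM with median 1864 and 1885 to 2379 CPM with median 2236, 0.21 ± 0.06, adjusted p = 0.00815), and Trf was not called with the offsets (0.13, adjusted p = 0.062), nor was Mbp with any of 8 libraries left out (adjusted p up to 0.0906). Of 18 genes of precursors and differentiation, 8 were lower (44.4%, and 6 with the offsets) and 0 higher (median -0.18). Apart from Gpr17, Enpp6, an enzyme of newly formed oligodendrocytes, ran from 45.3 to 65.8 CPM with a median of 53.7 in young mice and from 36.9 to 46.0 CPM with a median of 41.2 in old mice (-0.39 ± 0.06, adjusted p = 8.47e-05), and Olig2, the lineage factor, had 56.5 to 72.5 CPM with median 60.5 and 42.1 to 60.3 CPM with median 51.4 (-0.31 ± 0.07, adjusted p = 0.00142). Pdgfra, the defining receptor of precursors, had 48.2 to 58.9 CPM with median 53.2 and 44.9 to 54.8 CPM with median 49.4, overlapping (-0.10 ± 0.05, adjusted p = 0.181).

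Vessel and meningeal lists held genes in both directions. Of 18 genes of endothelium and the blood barrier, 3 were higher (Vwf, Slc2a1 and Slc16a1) and 4 lower (Flt1, Mfsd2a, Tek and Kdr), with a median of -0.02. Vwf, the clotting factor stored in endothelium, ran from 15 to 25.8 CPM with a median of 17.7 in young mice and from 25 to 39.2 CPM with a median of 32.2 in old mice (0.77 ± 0.10, adjusted p = 6.89e-06), and Mfsd2a, a lipid transporter of the barrier, had 37.5 to 53.7 CPM with median 47.4 and 29.2 to 40.8 CPM with median 39.3 (-0.34 ± 0.08, adjusted p = 0.00265). Cldn5, the tight junction protein, did not pass (-0.03, adjusted p = 0.882). Of 11 tested pericyte and smooth muscle genes, Tagln (1.14, adjusted p = 8.96e-06) and Anpep (1.41, adjusted p = 6.46e-06) were higher and Myh11, smooth muscle myosin, was lower (-0.61, adjusted p = 0.00125). Of 10 tested meningeal fibroblast genes, Fmod, Mgp and Pdgfrl were higher and Myoc and Bgn lower. Fmod, a collagen-binding proteoglycan, had 7.63 to 10.4 CPM with median 9.01 and 17.6 to 30.3 CPM with median 22.9 (1.36 ± 0.10, adjusted p = 4.63e-10). Over all genes 13.5% were higher and 12.9% lower, against 16.7% and 22.2% of the endothelial genes. Of 34 tested collagens, 5 were higher (14.7%, namely Col5a3, Col5a1, Col12a1, Col6a3 and Col22a1) and 6 lower (17.6%). The basement membrane collagens Col4a1 (35.4 to 47.4 CPM with median 38.5 and 25.8 to 38.6 CPM with median 29.3, -0.39 ± 0.08, adjusted p = 0.000667) and Col4a2 (47.4 to 58.9 CPM with median 53.1 and 35.0 to 48.7 CPM with median 40.7, -0.40 ± 0.06, adjusted p = 6.16e-05) were among the lower ones, and they are neighbours on opposite strands.

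Of the genes of synapses that were called, all but 1 were lower, in small steps. Of 30 genes of synaptic adhesion and postsynaptic scaffolds, 18 were lower (60.0%, against 12.9% of all genes) and 0 higher, and all 30 had a negative log2 fold change (median -0.20). Ptprd is described above, and Gphn, the scaffold of inhibitory synapses, had 65.9 to 74.7 CPM with median 69.2 and 51.2 to 63.3 CPM with median 56.4 with no overlap (-0.29 ± 0.05, adjusted p = 0.000106). Dlg4, the scaffold PSD-95, had 323 to 361 CPM with median 349 and 315 to 396 CPM with median 327 (-0.04 ± 0.05, adjusted p = 0.541) and did not pass. With the offsets 11 of the 30 were lower. Of 31 genes of vesicle release, 13 were lower (41.9%, and 11 with the offsets) and 1, Rab3a, higher (0.14, adjusted p = 0.0117, and 0.01, adjusted p = 0.875 with the offsets). Unc13a, which primes vesicles for release, ran from 145 to 169.9 CPM with a median of 156 in young mice and from 116 to 134 CPM with a median of 121 in old mice (-0.37 ± 0.04, adjusted p = 7.78e-07), whereas Snap25 (-0.13, adjusted p = 0.226) and Syt1 (-0.17, adjusted p = 0.0569) did not pass.

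Receptor genes that were called were lower too. Of 18 ionotropic glutamate receptor genes, 11 were lower (61.1%, against 12.9% of all genes) and 0 higher (median -0.24), and 7 with the offsets. Gria2, the AMPA receptor subunit that blocks calcium entry, ran from 150.2 to 205 CPM with a median of 175 in young mice and from 107 to 136 CPM with a median of 125 in old mice (-0.47 ± 0.06, adjusted p = 2.12e-06) and was -0.22, adjusted p = 0.00116 with the offsets. Grin2b, an NMDA receptor subunit, had 56.3 to 77.7 CPM with median 70.7 and 45.1 to 61.1 CPM with median 55.5 (-0.34 ± 0.07, adjusted p = 0.00104), and with the offsets -0.12, adjusted p = 0.123. Of 23 tested GABA and glycine genes, 11 were lower (47.8%, median -0.20), 18 when mouse F was left out, 7 without young B and 8 with the offsets. Gad2, an enzyme of GABA synthesis, had 86.1 to 114 CPM with median 101 and 63.3 to 106 CPM with median 76.7 (-0.34 ± 0.08, adjusted p = 0.00344), Gad1 had 154 to 191 CPM with median 168 and 83.3 to 164 CPM with median 147 (-0.26 ± 0.09, adjusted p = 0.0316), and the lowest Gad1 value was that of old D. Slc6a5, the glycine transporter of inhibitory neurons, had 468 to 551 CPM with median 521 and 402 to 519 CPM with median 455 (-0.16 ± 0.05, adjusted p = 0.0363). With the offsets Gad1 (-0.19, adjusted p = 0.121) and Slc6a5 (-0.10, adjusted p = 0.185) were not called, nor was Gad1 without young B, C or D (adjusted p up to 0.0618) or Slc6a5 with any of 10 libraries left out (up to 0.078). Of 16 genes of motor neurons and cholinergic transmission, Chodl (-0.23, adjusted p = 0.0162) and Chrm2 (-0.31, adjusted p = 0.00112) were lower (12.5%, against 12.9% of all genes) and 0 higher, and Chodl was not called with the offsets (-0.15, adjusted p = 0.128). Chat, which makes acetylcholine, ran from 13.9 to 27.2 CPM with a median of 23.4 in young mice and from 15.1 to 29.9 CPM with a median of 18.9 in old mice (-0.13 ± 0.13, adjusted p = 0.511), and Slc18a3, its vesicular transporter, ran from 54.9 to 69.3 CPM with a median of 56.3 in young mice and from 45.5 to 69.4 CPM with a median of 58.4 in old mice (0.02 ± 0.07, adjusted p = 0.839), both overlapping. None of 17 tested neuropeptide genes passed, including Penk (0.20, adjusted p = 0.0628) and Tac1 (-0.14, adjusted p = 0.186), and 2 were lower with the offsets.

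Most calls among ion channel and axon genes were small falls as well. Of 27 tested voltage-gated sodium and calcium channel genes, 16 were lower (59.3%) and 1 higher. Scn3a had 20.6 to 26.9 CPM with median 23.9 and 14.5 to 19.9 CPM with median 16.5 with no overlap (-0.49 ± 0.08, adjusted p = 4.12e-05), and Scn2a had 71.7 to 95.6 CPM with median 94.3 and 63.8 to 83.1 CPM with median 67.8 (-0.35 ± 0.06, adjusted p = 0.000282). Of 70 tested potassium channel genes, 15 were lower (21.4%, against 12.9% of all genes) and 3 higher (4.29%, against 13.5%), namely Kcns1 (0.65, adjusted p = 0.00451), Kcnj2 (0.58, adjusted p = 1.08e-05) and Kcnk6 (0.66, adjusted p = 0.0176). Kcna2, a channel of the axon beside the node, had 511 to 591 CPM with median 565 and 436 to 537 CPM with median 474 (-0.23 ± 0.04, adjusted p = 0.000519), and with the offsets -0.09, adjusted p = 0.0824. Of 28 genes of the cytoskeleton and axonal transport, 16 were lower (57.1%) and 2 higher (median -0.19). Nefm, a neurofilament subunit, ran from 1732 to 2134 CPM with a median of 1882 in young mice and from 1134 to 1746 CPM with a median of 1472 in old mice (-0.40 ± 0.07, adjusted p = 0.00015), Nefl had 1828 to 1995 CPM with median 1880 and 1503 to 1859 CPM with median 1635 (-0.21 ± 0.05, adjusted p = 0.00165), and the motor proteins Kif5a (-0.32, adjusted p = 0.000295) and Kif5b (-0.34, adjusted p = 2.42e-05) were lower as well. The higher members were Stmn3 (0.13, adjusted p = 0.0457) and Tubb3 (0.13, adjusted p = 0.0178), whose direction turned with the offsets (-0.04, adjusted p = 0.69 and -0.01, adjusted p = 0.831), and Stmn3 was not called with any of 13 libraries left out (adjusted p up to 0.0982).

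Clustered protocadherins, adhesion proteins that give neurons distinct surface identities, had more higher than lower calls. Of 54 tested members, 20 were higher (37.0%, against 13.5% of all genes) and 1, Pcdha12, lower (-0.62, adjusted p = 0.00329), with a median of 0.26. Pcdhb8 (ENSMUSG00000045876, chromosome 18 from 37355121 to 37358604) ran from 3.28 to 5.75 CPM with a median of 5.28 in young mice and from 9.55 to 15.4 CPM with a median of 13 in old mice (1.37 ± 0.12, adjusted p = 9.41e-09), Pcdhb5 had 2.83 to 4.66 CPM with median 3.46 and 5.11 to 9.97 CPM with median 7.54 (1.13 ± 0.15, adjusted p = 6.68e-06), and Pcdhga2 had 14.3 to 19.9 CPM with median 17.4 and 22.5 to 34.9 CPM with median 29.8 (0.76 ± 0.08, adjusted p = 2.84e-07). All 3 separated the groups. Members of the alpha and gamma clusters share exons, so how reads were divided among them is uncertain. Of 11 tested genes of perineuronal nets, the matrix around many neurons, 5 were lower (45.5%, against 12.9% of all genes, namely Acan, Bcan, Ncan, Vcan and Tnr) and Tnc was higher (0.57, adjusted p = 0.0143). Tnr, which crosslinks the net, had 128 to 165 CPM with median 138 and 88.8 to 121 CPM with median 94.8 with no overlap (-0.49 ± 0.06, adjusted p = 3.75e-06), and Acan, its core proteoglycan, had 37.1 to 45.8 CPM with median 40.8 and 26.2 to 38.4 CPM with median 35.3 (-0.27 ± 0.07, adjusted p = 0.00594). Of 32 tested Hox genes, which keep the positional identity of cord segments, 6 were lower (18.8%, against 12.9% of all genes) and 0 higher (median -0.14), with 9 lower under the offsets and 3 without old D or young A. Hoxd4 had 11.3 to 13.5 CPM with median 12 and 6.71 to 10.3 CPM with median 9.18 (-0.46 ± 0.09, adjusted p = 0.000666) and overlaps Hoxd3 on the same strand, and Hoxb9 had 80.6 to 114 CPM with median 102 and 63.1 to 91.5 CPM with median 77.4 (-0.35 ± 0.08, adjusted p = 0.00227).

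Among genes for ribosomes and mitochondria, the members called without the offsets were all higher, and fewer were called higher with the offsets. Of 78 tested cytosolic ribosomal protein genes, 55 were higher (70.5%, against 13.5% of all genes) and 0 lower (median 0.28), and 39 with the offsets. Rps2 had 84.0 to 100.4 CPM with median 87.9 and 111 to 138 CPM with median 119 (0.45 ± 0.05, adjusted p = 4.04e-07) with no overlap. Of 83 tested nuclear genes of the respiratory chain, 21 were higher (25.3%) and 0 lower (median 0.10), and with the offsets 2 were higher and 1 lower. Cox6a1 (0.25, adjusted p = 0.000599, and 0.07, adjusted p = 0.283 with the offsets) and Ndufb9 (0.25, adjusted p = 0.000514, and 0.07, adjusted p = 0.165) were examples. Of 13 mitochondrially encoded mRNAs, 0 were called in either direction, and 1 was lower with the offsets. Of 31 genes of glycolysis and the citric acid cycle, 8 were higher (25.8%) and 2 with the offsets, and of 34 proteasome genes 8 were higher (23.5%), 3 with the offsets and 5 without young B, C or D. Aldoa, a glycolytic enzyme, had 1074 to 1267 CPM with median 1197 and 1308 to 1420 CPM with median 1361 (0.19 ± 0.04, adjusted p = 0.000414, and 0.09, adjusted p = 0.107 with the offsets), and Psmb6, a catalytic subunit of the proteasome, had 70.8 to 83.1 CPM with median 77.2 and 83.4 to 96.7 CPM with median 91.0 (0.24 ± 0.05, adjusted p = 0.0004).

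Sirt1 (ENSMUSG00000020063, chromosome 10 from 63319005 to 63381704), the deacetylase the study is about, ran from 11.5 to 19.8 CPM with a median of 13.6 in young mice and from 9.86 to 16.4 CPM with a median of 13.2 in old mice, overlapping (-0.12 ± 0.12, adjusted p = 0.484). No difference was detectable at this spread, and these are mRNA levels, not protein. Of the 7 sirtuins 1 passed (14.3%, against 13.5% of all genes), and with the offsets Sirt3 and Sirt5 were higher and Sirt4 lower. The one that passed was Sirt5, a mitochondrial desuccinylase, with 7.69 to 9.11 CPM with median 8.08 and 8.61 to 10.8 CPM with median 9.66 (0.23 ± 0.08, adjusted p = 0.042), and it did not pass with any of 12 libraries left out, mouse F among them (adjusted p up to 0.0843).

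Stress genes did not move as 1 group. Of 21 heat shock proteins and chaperones, 9 were lower (42.9%, against 12.9% of all genes) and 2 higher (median -0.15). Hsph1 had 265 to 358 CPM with median 325 and 203 to 246 CPM with median 234 (-0.44 ± 0.06, adjusted p = 3.63e-06) and Hsp90aa1 had 1173 to 1362 CPM with median 1258 and 973 to 1121 CPM with median 1021 (-0.30 ± 0.04, adjusted p = 5.56e-06), both without overlap, whereas Hspb1, a small heat shock protein of reactive glia, ran from 15.2 to 29.0 CPM with a median of 23.6 in young mice and from 24.8 to 67.7 CPM with a median of 52.6 in old mice (1.16 ± 0.14, adjusted p = 1.09e-06). Of 24 tested genes of the unfolded protein and integrated stress responses, Atf3, Atf5, Ppp1r15a and Sesn2 were higher (16.7%, against 13.5% of all genes) and Hspa5, Hsp90b1 and Pdia6 lower (12.5%, against 12.9%), and with the offsets 2 were higher and 5 lower. Atf3, a transcription factor induced by injury, had 0.785 to 1.95 CPM with median 1.17 and 3.86 to 8.42 CPM with median 6.12 (2.31 ± 0.19, adjusted p = 4.74e-09), and Hspa5, the main chaperone of the endoplasmic reticulum, had 208 to 398 CPM with median 288 and 181 to 236 CPM with median 226 (-0.41 ± 0.09, adjusted p = 0.00232). Of 18 NRF2 targets and antioxidant enzymes, 10 were higher (55.6%) and 1, the cystine transporter gene Slc7a11, lower (-0.60, adjusted p = 0.000182). Hmox1, which degrades haem, had 4.45 to 6.94 CPM with median 5.85 and 8.92 to 14.5 CPM with median 11.6 (1.03 ± 0.12, adjusted p = 6.1e-07), Gstm1 had 177 to 238 CPM with median 214 and 305 to 379.9 CPM with median 322 (0.63 ± 0.06, adjusted p = 1.58e-08), and Gpx1 had 45.4 to 60.8 CPM with median 54.4 and 77.4 to 104 CPM with median 84.4 (0.66 ± 0.07, adjusted p = 6.59e-08). Of 14 tested metallothionein and iron genes, 8 were higher (57.1%) and 1, Ireb2, lower (-0.22, adjusted p = 0.0127, and -0.04, adjusted p = 0.699 with the offsets). The ferritin chains Fth1 (5104 to 5712 CPM with median 5507 and 6512 to 8369 CPM with median 7390, 0.44 ± 0.05, adjusted p = 6.15e-07) and Ftl1 (132 to 188 CPM with median 151 and 184 to 369.9 CPM with median 316, 0.99 ± 0.10, adjusted p = 5.93e-08) and the metallothionein Mt1 (184 to 241 CPM with median 213 and 278 to 356 CPM with median 332, 0.63 ± 0.06, adjusted p = 3.17e-08) rose.

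In several other short lists the calls came to a few genes each, to be read against 13.5% higher and 12.9% lower over all genes. Of 14 tested senescence and p53 genes, 4 were higher (28.6%), among them Trp53, Ccnd1 and Bbc3, the last not called with the offsets or without old H or young C. In this list 1 gene was higher by more than 2-fold, and the largest log2 fold change was 2.21. Cdkn1a, which encodes the cell cycle inhibitor p21, had 24.3 to 41.7 CPM with median 31.8 and 27.7 to 35.8 CPM with median 32.9 (-0.01 ± 0.08, adjusted p = 0.974). Of 14 tested cell cycle genes, the 4 higher ones (28.6%) were the replication helicase genes Mcm2, Mcm3, Mcm6 and Mcm7, and 2 were higher with any of 10 libraries left out. Of 18 clock genes, 5 were higher (27.8%, and 3 genes without old D), Dbp, Tef, Bhlhe40 and Bhlhe41 among them, and Clock was lower, with Bhlhe40 at 0.31, adjusted p = 8.4e-05 and Per1 at 0.14, adjusted p = 0.486. The time of day of collection is not given in the sources used here. Of 18 tested immediate early genes, Fos (0.56, adjusted p = 0.000266), Junb (0.61, adjusted p = 0.000561), Ier3 and Btg2 were higher (22.2%) and Arc lower, and 2 were higher with the offsets. Of 16 tested neurotrophic factors and receptors, Cntf, Igf1, Fgf2 and Ngfr were higher and Bdnf (-0.58, adjusted p = 0.0405) and Vegfa lower, 7 were higher with the offsets, and 4 were lower without mouse F. Bdnf was not called with the offsets (-0.47, adjusted p = 0.102) or with any of 7 libraries left out (adjusted p up to 0.113). Of 28 mouse orthologs of human ALS genes, 7 were higher and 7 lower, and with the offsets 5 and 4. Sod1 had 182 to 205 CPM with median 191 and 199.6 to 235 CPM with median 221 (0.19 ± 0.04, adjusted p = 0.00194) and Tardbp had 144 to 167 CPM with median 158 and 130.0 to 146 CPM with median 138 (-0.19 ± 0.04, adjusted p = 0.000861, and -0.06, adjusted p = 0.337 with the offsets). Of 15 tested ependymal genes 2 were higher, Cfap126 and Dnaic2 (1 with any of 8 libraries left out), and of 6 tested Schwann cell genes Pmp22 and Ngfr were higher and Cdh19 lower.

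Over the 51 lists with at least 5 tested genes, the mean log2 CPM of a list lay above all young mice in every old mouse for 15 lists, and below all young mice for 7. At least 50% of tested genes were higher in 14 lists and lower in 6. The list of disease-associated microglia lay at 4.30 to 4.44 in young mice, at 6.32 to 6.75 in 7 old mice and at 5.49 in mouse F. Reactive astrocyte genes lay at 3.77 to 3.95 in young, 4.95 to 5.26 in the 7 old and 4.38 in mouse F. Glutamate receptor genes lay at 5.85 to 5.97 in young, 5.62 to 5.76 in the 7 old and 5.83 in mouse F. In the Hox list the young lay at 3.74 to 4.15, the 7 old at 3.38 to 3.87 and mouse F at 4.19, above every young mouse. Mouse F was the lowest old mouse in 8 of 8 immune lists and the highest in 8 of 12 neuron lists. Over all 51 lists mouse F was the lowest in 23, those of lysosomal and ribosomal proteins among them, and the highest in 10. In the motor neuron list it was the lowest (4.17, the other old mice 4.27 to 4.53). Among the 8 was the protocadherin list, where it lay farthest from the young mice (3.67, young 3.23 to 3.36).

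**Figure D4:**
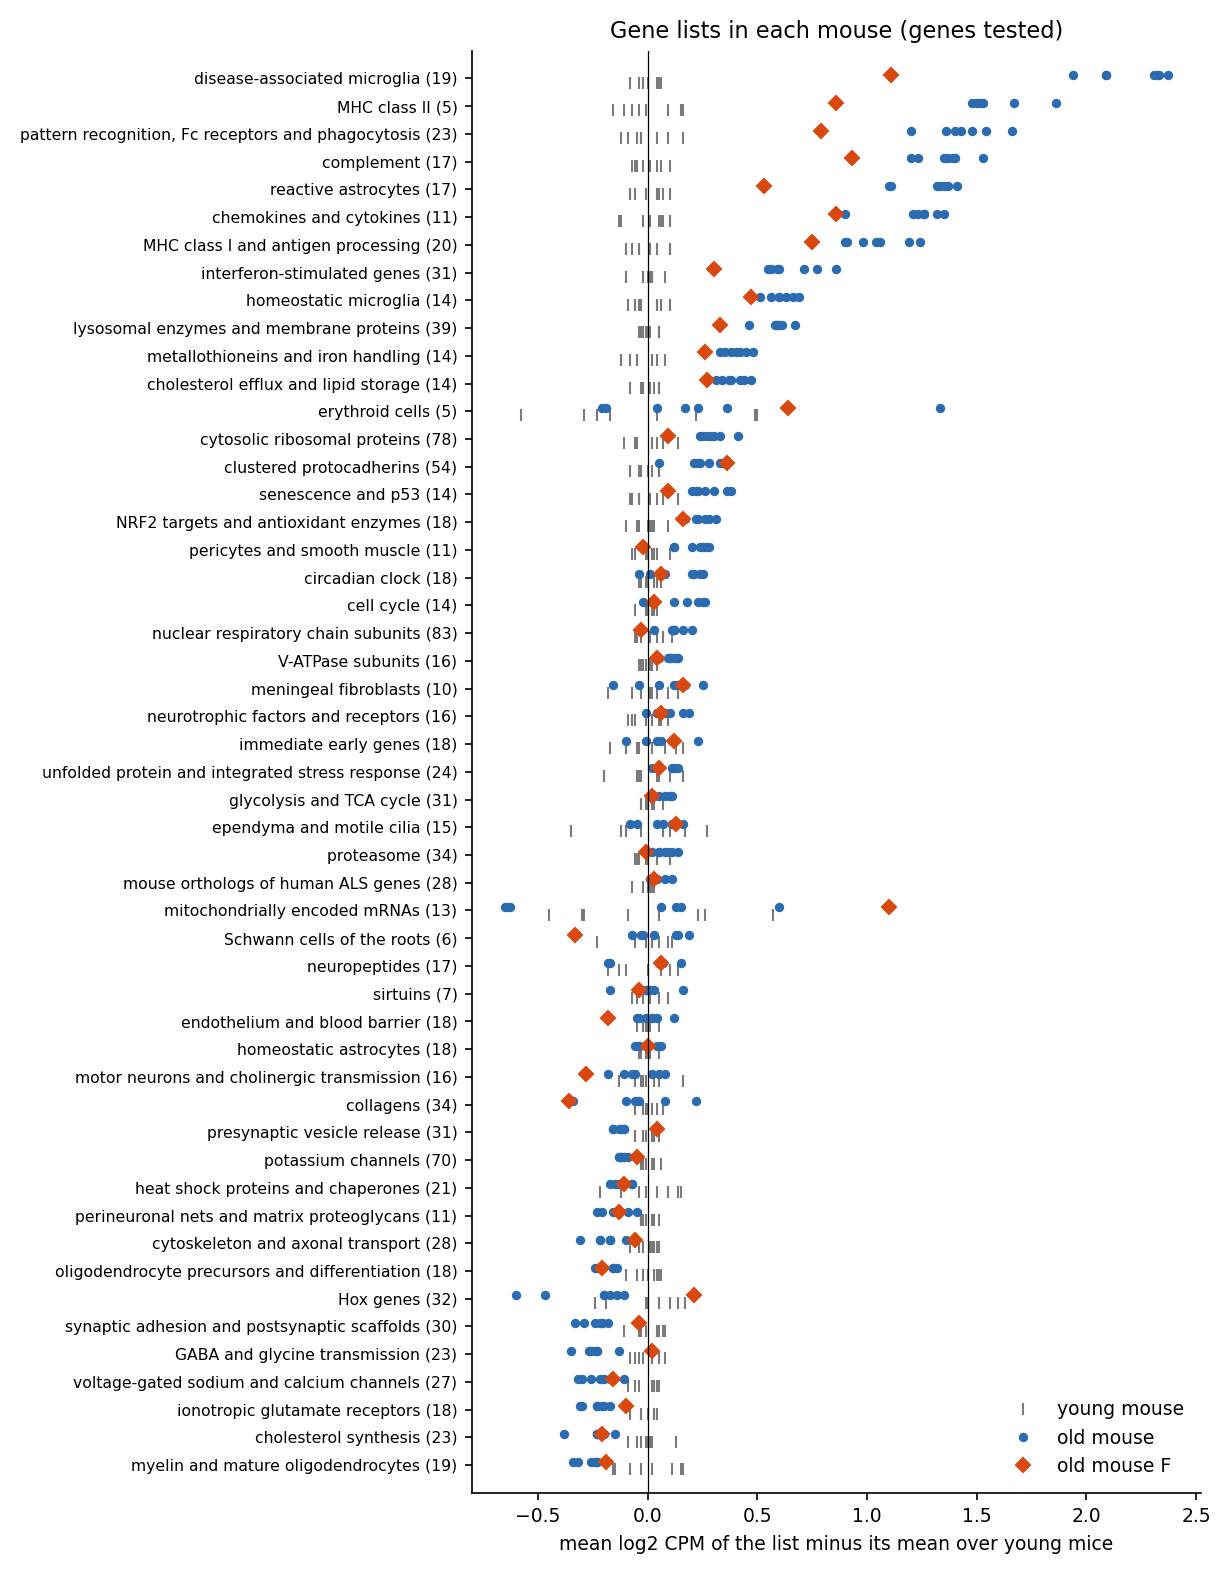
Mean log2 CPM of gene lists in each of the 16 mice, relative to the mean of the young mice, with mouse F marked. In the immune lists mouse F lies between the young and the other old mice (5.49 for disease-associated microglia, against 6.32 to 6.75 in the other old mice), and in the glutamate receptor list it lies just under the young range.

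Variation among old mice was larger than among young mice for most genes, and mouse F carried much of it. The SD of log2 CPM was larger in old mice for 68.5% of the 13647 genes, with a median of 0.169 in old and 0.137 in young mice. Without mouse F these became 57.4% and 0.149. Among genes higher in old mice 60.3% had the larger SD in the old group and 45.7% without mouse F, and among lower genes 74.0% and 65.3%. To place each old mouse, it was left out of the test, and its level was set against the young mean (0%) and the mean of the other 7 old mice (100%) over the genes then called. Mouse F lay at a median of 46.0% over higher genes, 36.5% over lower genes and 54.4% over genes higher by more than 2-fold. The other old mice lay at 92.6% to 114% over higher genes and at 64.3% (mouse B) to 121% (mouse D) over lower genes. When mouse F was left out, 2179 genes were higher and 2200 lower, and these held 1773 of the 1839 and 1702 of the 1761. Mouse F is the animal with the highest mitochondrial share given above, and the part of RNA quality, dissection or its age in its position was not tested.

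**Figure D5:**
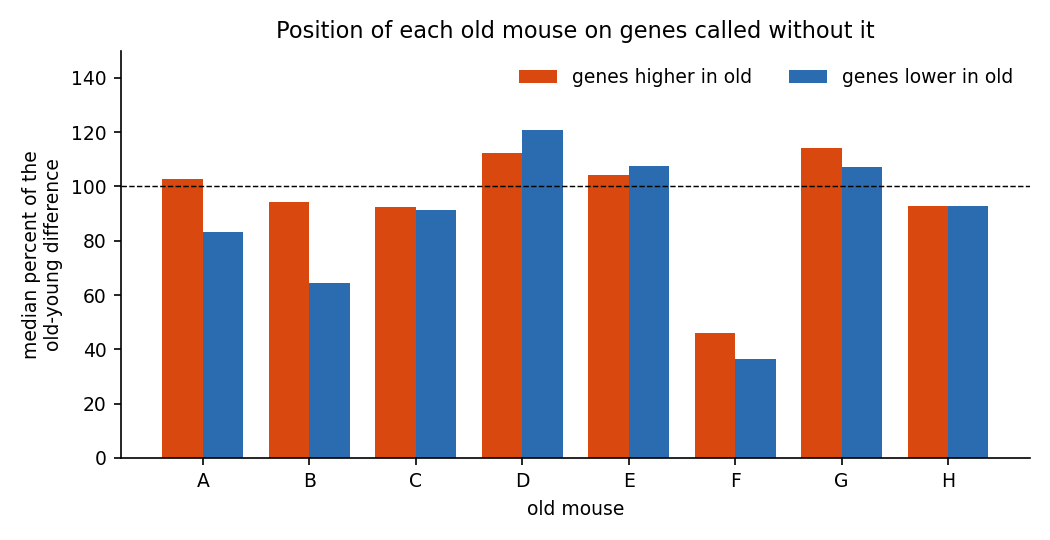
Position of each old mouse between the young mean (0%) and the mean of the other old mice (100%), as the median over genes called without that mouse, for genes higher and genes lower in old mice (the dashed line marks 100%). Mouse F lies at 46.0% and 36.5%, and the next lowest value is 64.3%, of mouse B over lower genes.

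The genes with the largest SD among old mice, out of those with a mean of at least 5 CPM, were Eno1b, Gm20431, Gm45837, Gm45234, Gm11273, Zfp781, Gm14434, Pde2a, Hoxd10 and Gm12184, in this order. The SD was larger still in young mice for Gm45837 (3.27, against 2.9 in old), Gm45234 (2.85 and 2.41) and Gm12184 (2.64 and 1.99), and for Eno1b it was 3.1 in young and 4.02 in old mice. Of these 10, Gm20431, Gm45837, Gm45234, Pde2a and Hoxd10 overlap another gene on the same strand in the annotation, and Eno1b is a near copy of Eno1. Eno1b had 0 to 82.0 CPM with median 7.23 and 0 to 121 CPM with median 31.1, yet the sum of Eno1 and Eno1b had an SD of 0.105 in young and 0.0833 in old mice on the log2 scale. Pde2a had 25 to 59.3 CPM with median 38 and 0.463 to 51.4 CPM with median 33.8, with the lowest value in mouse F (SD 2.04 in old mice, 0.393 without F and 0.462 in young mice, on the log2 scale), and Gm45837, which overlaps it on the same strand, had 0 to 26.7 CPM with median 17.0 and 0 to 41.3 CPM with median 16.1, with the highest in mouse F. Their sum ran from 46.6 to 60.7 CPM in young and from 41.8 to 51.4 CPM in old mice. Of the 6 genes lower by more than 2-fold, Gm45234 overlaps Atn1 and Grcc10 on the same strand and had 0 to 28.5 CPM with median 14.2 and 0 to 13.9 CPM with median 0 (-2.35 ± 0.75, adjusted p = 0.0219, and 0.0553 without young F). With 1 library left out, the log2 fold change of Gm45234 ran from -3.54 to -2.11. Hspa1b has the near-identical copy Hspa1a, and their sum ran from 11.5 to 33.0 CPM (median 19.4) in young and from 10.02 to 15.7 CPM (median 12.3) in old mice. The part of read assignment in the spread of these genes was not tested.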

How the data were processed

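Spinal cord RNA of 8 young and 8 old mice was analysed from the deposited tables. Per the labels and the study's methods, the authors aligned reads with STAR to mm10, summarised them with RSEM and SAMtools 1.3 on an Ensembl annotation, and deposited expected counts per gene (whole numbers as deposited) and log2 values of FPKM + 1. RSEM divides reads among similar genes, and the strand setting is not given in the sources used here, so overlapping, antisense and near-copy genes are uncertain. Groups were taken from the labelled age. No per-sample column was left unmapped (0 columns).

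Genes were kept by filterByExpr (minimum count 10, minimum total 15). This filter keeps a gene that reaches the minimum in 1 group alone, so genes near the floor in young mice could enter through the old group. Counts were scaled by TMM and fitted by edgeR's quasi-likelihood test over the 16 libraries, with Benjamini-Hochberg adjustment over 13647 genes. A call is an adjusted p under 0.05, and fold changes are old over young. CPM are counts scaled to a common library total after TMM, log2 CPM used a prior count of 2, and SD is over mice. Alternatives were DESeq2, RLE factors, library totals, other filters, 1 fit of all 22 libraries, voom with library weights, glmTreat, limma on the deposited log2 values of FPKM + 1, offsets for GC content and exon length (loess, span 0.3), and each library left out. The test was checked on simulated counts. Fits used edgeR 4.0.16 under R 4.3.3, with DESeq2 1.42.0 and limma 3.58.1 for alternatives, and pandas 2.3.3, matplotlib 3.10.9 and Python 3.11.15 served for tables and plots.

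Of 21995 genes in the table, 21919 were found in GENCODE M21 (GRCm38), which gave coordinates, exon length and GC content, and 76 were not. Promoter windows came from RefSeq.

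Genes named were the 5 highest and 5 lowest fold changes among called genes without overlap, the 10 smallest adjusted p in each direction under 2-fold, the first 2 genes of each list with up to 4 more called members, the 10 largest SDs among old mice, and Sirt1. Some genes were named after their values were seen, namely the members behind counts of 5 or fewer, the genes lower by more than 2-fold, Gpnmb, Mog and the members of split lists. Some genes that this rule names are not reported here. The gene lists and members were chosen with earlier results of these data known, so no list was tested as a set. Mice are the replicates, and no 2 libraries of a group matched within sampling noise (56 pairs, lowest chi-square 2.36 per degree of freedom). Depth limits genes near 3 counts, given as a floor per library, and covers counting error only.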

Additional observations from a re-analysis of the deposited data

Results flagged for a closer look

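In each group of 8 mice, the highest and the lowest value were set against their nearest neighbour, and a value was singled out where that gap, as a part of the group's range, exceeded Dixon's limit for 8 values. Of 506 groups of values looked at, 46 held such a value, where chance alone singles out about 1 in 20 independent groups. These groups share the same mice and include genes chosen for a large SD among old mice, so no excess is read from this count. Among the gene levels it was 39 of 390 groups, 18 of them through old mouse F, and the causes were not tested.

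Old mouse F was the lowest old mouse, apart from the rest, in genes of microglia, complement, lysosome and reactive astrocytes. Its values were 22.5 CPM for Trem2 (the other old mice 42.1 to 52.0), 17.4 for Tyrobp (43.2 to 60.7), 89.2 for C1qb (121 to 145), 233 for C4b (456 to 609) and 68.6 for Grn (90.3 to 108). They were 132 CPM for Vim (253 to 355), 106 for Serpina3n (185 to 252), 40.1 for Cd44 (53.2 to 63.2), 24.8 for Hspb1 (49.8 to 67.7), 205 for Cnn3 (252 to 291) and 184 for Ftl1 (294 to 369.9). The same mouse was the highest old mouse for Myoc at 27.6 CPM (5.98 to 12.1 in the others), Fa2h at 196 (117 to 148), Dlg4 at 396 (315 to 337), Syt1 at 225 (161 to 187), Penk at 274 (175 to 209), Atp6v0c at 668 (528 to 584) and Gm12184 at 34.2 (0 to 9.74). Its mean log2 CPM was low for disease-associated microglia (5.49, the others 6.32 to 6.75), MHC class II (3.04, the others 3.66 to 4.04) and reactive astrocytes (4.38, the others 4.95 to 5.26) and high for vesicle release (8.30, the others 8.10 to 8.15). It stood at 1.64 on the first and 37.5 on the second principal component.

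Among the other old mice, B was lowest for Cfp (2.70 CPM) and for the mean log2 CPM of cholesterol synthesis (6.01, the others 6.16 to 6.24) and highest for Kcnk6 (7.16 CPM). Old D was lowest for Gad1 at 83.3 CPM, where the others lay at 142 to 164, and highest for Cd74 at 15.5 CPM. Old G was highest for Chodl (39.9 CPM), Rnaset2b (57.1) and Gm45234 (13.9), and old H for Bbc3 (4.02 CPM), Bves (2.97) and Hspa1b (7.87).

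Among young mice, C was lowest for Chat at 13.9 CPM, where the others lay at 21.8 to 27.2, and for Kcnj2 (9.99) and highest for Atf5 (32.1). Young B was highest for Lcn2 at 8.77 CPM, where the others lay at 0.226 to 2.41. Young F was highest for B2m (119 CPM) and Cxcl16 (3.07), young H was highest for Sqle (145) and Ccl3 (0.523) and lowest for Hspb1 (15.2), young A was highest for Tnr (165) and young D was lowest for Cox6a1 (151).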

How the results depend on the processing

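In every alternative run, 0 genes were called in the direction opposite to that given. Lower calls outnumbered higher ones with voom and library weights, without old B (1834 higher and 1852 lower) and without old F (2179 and 2200), and higher calls outnumbered lower ones in the others. The cause of the differences between settings was not tested. Against the 1839 higher genes the test for a change of at least 1.2-fold (glmTreat) gave 602, and against the 1761 lower genes it gave 96, while limma on log2 FPKM values gave 964 lower genes. DESeq2 gave 1871 and 1861, RLE factors 1829 and 1776, library totals 1740 and 1707, voom with library weights 2186 and 2241, and length and GC offsets 1694 and 1228, which made 58.0% of the calls higher, against 51.1%. Higher genes above 2-fold, 297, became 169 when 10 counts were required in every library, 127 with limma and 508 with no filter, which tests more low genes. Lower genes above 2-fold, 6, became 2, 1 and 28 in the same settings and 12 in 1 fit of all 22 libraries. Leaving out 1 library at a time gave 1632 to 2179 higher, 1477 to 2200 lower, 284 to 334 higher above 2-fold and 5 to 11 lower above 2-fold genes (11 without old B, C or E). The 14 lists with at least 50% of genes higher became 8 with glmTreat (14 to 15 with a library left out), and the 6 with at least 50% lower became 0 with glmTreat, 2 with limma, 4 with the offsets and 9 with voom and library weights (5 to 8 with a library left out).

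The median log2 difference between the shortest and the longest tertile of genes was 0.17 and became 0.00101 with the offsets, and that between the highest and the lowest GC tertile, 0.13, turned to -0.0434, which is what such offsets are built to remove. With them Stmn3 (-0.0369, adjusted p = 0.69) and Tubb3 (-0.0137, adjusted p = 0.831) changed direction. Of 163 named genes that were called, 104 stayed called in every alternative that tested them. The other 59 were lost in at least 1 (59 with glmTreat, 17 with the offsets, 17 with limma and 2 without old F). Many named genes were chosen for a small adjusted p or a large fold change, which favours keeping a call. Over all called genes the offsets kept 1286 of 1839 higher and 920 of 1761 lower ones, and glmTreat kept 602 and 96. Genes with fewer counts, such as Cst7, were not tested where 10 counts were required in every library. They were not counted as lost in that setting. Counts over lists stayed within 1.5 times of those given in 2408 of 2652 comparisons. These include lists with 0 calls in both fits, and many of the settings differ from the main fit by 1 library only. No robustness is therefore read from this number. Among the exceptions, the 15 lower potassium channel genes became 7 with limma and 1 with glmTreat. The 11 lower GABA and glycine genes became 5 and 0 in the same settings, which also gave fewer calls over all genes. No paired analysis was possible because the columns of the tables name libraries and carry no replicate numbers from the labels. Genes near 3 counts per library (0.32 to 0.582 CPM), such as T cell markers, were limited by depth.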
